A study of Mus musculus with 7 samples.

Results

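Caspases are cysteine proteases that are made as inactive precursors and cut their substrates after aspartate. The genes described here are 7 members of the mouse family, Casp1, Casp2, Casp4, Casp6, Casp8, Casp9 and Casp12, chosen by symbol from a count table of 21615 genes, in a set assembled around the difference of Casp12 between the groups compared here. Transcripts were measured by bulk RNA sequencing in megakaryocyte progenitors (MkPs) of the bone marrow of C57BL/6 mice. All cells were sorted as lin- CD117+ Sca-1- CD150+ CD41+ and divided by surface CD48 into CD48hi MkPs (n = 4 libraries) and CD48-/lo MkPs (n = 3 libraries). The labels name no allele, treatment, age or sex and do not say whether a library came from 1 mouse or from several. In the study, the 2 subsets lie on separate routes from hematopoietic stem cells to platelets, and the comparison asks how their transcripts differ.

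The family falls into groups by role. Initiator caspases start a cascade: Casp8 is recruited to death receptors, Casp9 is activated on the apoptosome built by Apaf1 and cytochrome c, and Casp2 is activated on the PIDDosome. Executioner caspases such as Casp6 are activated downstream and cut cellular proteins. The inflammatory group holds Casp1, which matures interleukin 1 beta and interleukin 18, Casp4, which senses bacterial lipopolysaccharide in the cytosol, and Casp12, which in the mouse has been linked to the endoplasmic reticulum (ER) and whose function is less settled. In the megakaryocyte lineage, the mitochondrial step of apoptosis, upstream of Casp9, is known for setting the life span of platelets.

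The 3 inflammatory genes lie side by side on chromosome 9, all on the plus strand (mm10). Casp1 (ENSMUSG00000025888) spans 5298508 to 5307290, Casp4 (ENSMUSG00000033538) spans 5308828 to 5336783 and Casp12 (ENSMUSG00000025887) spans 5345430 to 5373032. Gaps of 1537 bp (Casp1 to Casp4) and 8646 bp (Casp4 to Casp12) separate them, and the cluster covers 74525 bp. The only other gene of the table within 500 kb of Casp12 was the processed pseudogene Gm7390. The other 4 genes are scattered: Casp8 on chromosome 1 (58795374 to 58847503), Casp6 on chromosome 3 (129901425 to 129914103), Casp9 on chromosome 4 (141793612 to 141815976) and Casp2 on chromosome 6 (42264985 to 42282508).

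The promoters of the clustered genes are shown because these genes differed in the same direction between the subsets while lying next to each other. Each window runs from 250 bases before to 50 after the RefSeq start (GRCm38.p6, plus strand), with the windows at chr9:5298267-5298566 (Casp1), chr9:5308599-5308898 (Casp4) and chr9:5345226-5345525 (Casp12). For Casp4, which has 2 such windows, the one closer to the gene start of the table was taken. Capitals mark matches, on either strand, to 7 motifs chosen after the values were seen. These were a GATA motif spelled GATAA, a RUNX motif spelled TGTGGT, an ETS motif spelled AGGAAG, a STAT motif spelled TTCNNNGAA, an AP-1 motif spelled TGANTCA, and the IRF motif (GAAA, any 2 bases, GAAA) and NF-kB motif (GGG, any 3 bases, TTCC), where N is any base. Matches may overlap.
Casp1: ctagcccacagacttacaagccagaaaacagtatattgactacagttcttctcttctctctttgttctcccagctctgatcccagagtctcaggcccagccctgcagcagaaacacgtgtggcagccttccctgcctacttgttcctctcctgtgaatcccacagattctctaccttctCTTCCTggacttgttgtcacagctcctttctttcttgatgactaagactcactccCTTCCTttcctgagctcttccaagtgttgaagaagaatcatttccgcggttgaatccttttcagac
Casp4: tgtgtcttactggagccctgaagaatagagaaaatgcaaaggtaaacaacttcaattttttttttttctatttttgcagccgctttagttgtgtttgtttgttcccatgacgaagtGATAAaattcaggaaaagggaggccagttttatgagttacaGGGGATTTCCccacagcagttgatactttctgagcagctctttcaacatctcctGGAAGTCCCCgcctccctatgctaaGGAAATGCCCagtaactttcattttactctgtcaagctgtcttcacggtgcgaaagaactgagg
Casp12: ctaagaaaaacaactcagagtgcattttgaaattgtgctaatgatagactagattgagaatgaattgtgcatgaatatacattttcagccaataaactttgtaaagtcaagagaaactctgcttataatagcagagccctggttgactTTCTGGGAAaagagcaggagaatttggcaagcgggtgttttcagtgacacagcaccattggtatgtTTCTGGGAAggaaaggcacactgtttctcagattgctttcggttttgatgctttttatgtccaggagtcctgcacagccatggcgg

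The 3 windows shared no motif of this list. The Casp12 window held the STAT letters at 102 and 36 bases before the start, both times as TTCTGGGAA, and 8.3% of 32851 promoter windows held at least 1 match to that pattern. The Casp4 window held the NF-kB letters 3 times, at 93, 39 and 14 bases before the start (5.56% of windows held at least 1), and GATAA once, a motif found in 25.4% of windows. The Casp1 window held the ETS letters on the minus strand at 71 and 16 bases before the start, and 35.4% of windows held them at least once on either strand. None of the 3 held the RUNX (16.8% of windows), IRF (3.44%) or AP-1 letters (7.81%). The Casp1, Casp4 and Casp12 windows had 3, 5 and 3 CpG pairs, against a median of 7 over all windows. The windows of the other 4 genes had 5 (Casp8), 16 (Casp6), 26 (Casp2) and 28 (Casp9), so that the unclustered Casp8 had as few as Casp4. A match is a run of letters and no evidence that a factor binds there.

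All 7 genes passed the filter on low counts. Levels are CPM (counts relative to library size, scaled by TMM factors that even out library composition) as mean ± SD, and differences are log2 of CD48-/lo over CD48hi with the SE of the fit. The family was assembled with the difference of Casp12 in these libraries already known, so the differences of the 7 genes, and the calls that the fits over all genes made among them, are a description and no separate test of them. The fit of all 16653 tested genes with edgeR's quasi-likelihood test called 32 genes, which is 0.192% of them, at an adjusted p of 0.05. Of the 7 caspases it called 1, Casp12, beside 0.0841% of all genes called higher in CD48-/lo MkPs. The call was not made without a filter on low counts or on leaving out any of 6 libraries in turn, and was made without CD48-/lo replicate 3. DESeq2 called 1028 genes (5.86% of those it gave an adjusted p), among them Casp1, Casp4, Casp9 and Casp12.

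Casp12 showed the largest difference of the 7. In CD48hi replicates 1, 3, 4 and 5 it stood at 4.98, 10.6, 12.6 and 7.94 CPM, and in CD48-/lo replicates 1, 3 and 4 at 45.9, 35 and 89.5 CPM. The groups did not overlap, and the lowest CD48-/lo library lay well above the highest CD48hi library. The raw counts behind these levels were 323 to 652 reads in CD48hi and 1835 to 4425 in CD48-/lo libraries. The mean was 9.03 ± 3.30 CPM (n = 4) for the CD48hi and 56.8 ± 28.8 CPM (n = 3) for the CD48-/lo group, a log2 difference of 2.65 ± 0.42 or 6.29-fold. In bulk RNA, more cells that express a gene and more RNA per cell cannot be told apart.

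Casp1, its neighbour at the far end of the cluster, was also higher in CD48-/lo MkPs. Its levels were 4.17, 11.9, 6.20 and 6.95 CPM in CD48hi replicates 1, 3, 4 and 5, and 22.5, 11.6 and 41.0 CPM in CD48-/lo replicates 1, 3 and 4. Here the groups overlapped, since CD48-/lo replicate 3 lay just below CD48hi replicate 3. The log2 difference was 1.78 ± 0.47 (3.43-fold, 7.30 ± 3.28 against 25.0 ± 14.8 CPM).

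Casp4, the middle gene, followed Casp1 closely. It was at 4.01, 10.2, 10.2 and 7.54 CPM in CD48hi replicates 1, 3, 4 and 5, and at 35.8, 11.3 and 34.1 CPM in CD48-/lo replicates 1, 3 and 4. The groups did not overlap, but CD48-/lo replicate 3 came within about 1 CPM of the highest CD48hi library. The log2 difference was 1.76 ± 0.46 (3.40-fold, 7.98 ± 2.93 against 27.1 ± 13.7 CPM).

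CD48-/lo replicate 3 was thus the lowest CD48-/lo library for all 3 genes, but only for Casp4 did it stand apart from the other CD48-/lo libraries. Without CD48-/lo replicate 3 the log2 differences were 2.00 (Casp1), 2.03 (Casp4) and 2.80 (Casp12). Without CD48-/lo replicate 4, the library highest in Casp1 and Casp12, they were 1.22, 1.56 and 2.16. In every setting tried the 3 genes remained higher in CD48-/lo MkPs. The pseudogene Gm7390, upstream of the cluster, was at 61.4 ± 17.3 and 54.4 ± 5.70 CPM in the respective subsets.

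**Figure D1:**
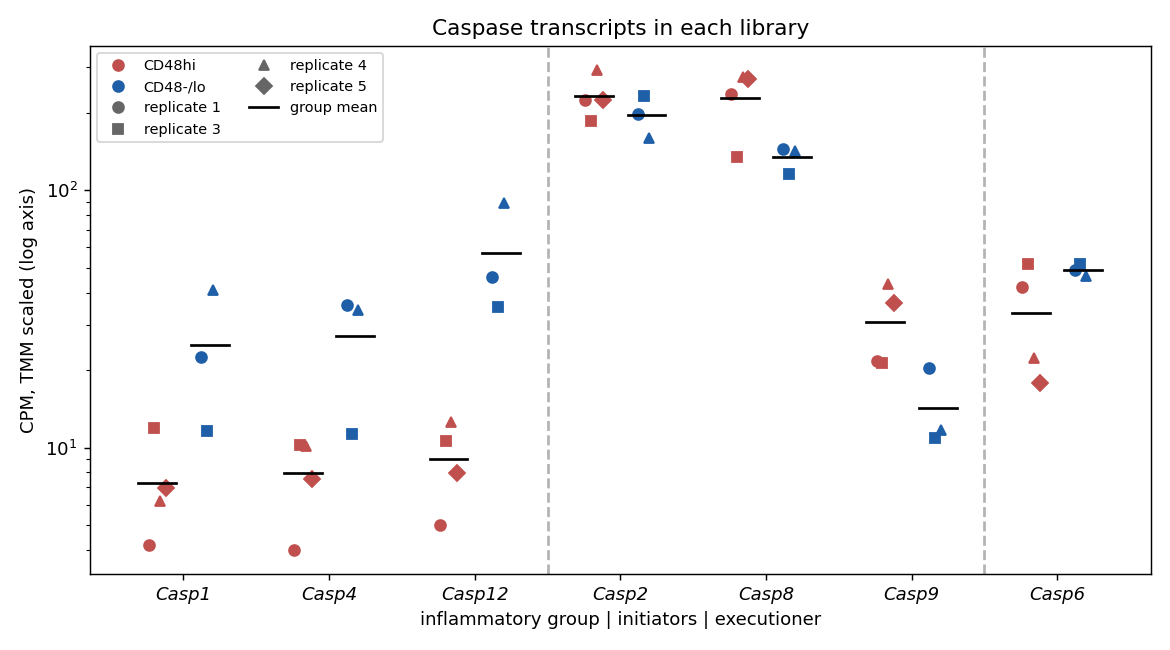
CPM (TMM scaled, log axis) of the 7 caspases in each library, CD48hi in red and CD48-/lo in blue, with a marker shape per replicate number and a bar at the group mean. Casp12 is at 4.98 to 12.6 CPM in CD48hi and 35 to 89.5 CPM in CD48-/lo libraries, while Casp2, Casp8 and Casp9 have lower means in CD48-/lo libraries.

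The 3 clustered genes also varied together within the subsets. After the group means were removed, Pearson's r of log2 CPM over the 7 libraries was 0.83 between Casp1 and Casp4, 0.82 between Casp1 and Casp12 and 0.82 between Casp4 and Casp12. CD48hi replicate 1 was the lowest library for all 3. These values are a description over libraries that share their depth and cell make-up, and many genes were as close: of 11759 genes compared with Casp12 in this way, Casp1 ranked 381 and Casp4 ranked 386. With the group means left in, r with Casp12 was 0.93 for Casp1 (rank 101) and 0.92 for Casp4 (rank 123). The ratio of Casp12 to Casp4, each per kb, ranged from 1.01 to 1.20 over the CD48hi libraries. In CD48-/lo replicates 1, 3 and 4 the same ratio came to 1.24, 2.99 and 2.53. The ratio of Casp12 to Casp1 ranged from 0.73 to 1.65 over the CD48hi libraries and came to 1.67, 2.46 and 1.78 in CD48-/lo replicates 1, 3 and 4. Casp12 thus stood higher against both neighbours in the CD48-/lo libraries. The margin over the highest CD48hi library was small for both ratios in replicate 1 and for Casp1 in replicate 4.

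The initiators did not follow the inflammatory genes. Casp8 was at 235.9, 134.5, 274.5 and 270.7 CPM in CD48hi replicates 1, 3, 4 and 5 and at 144.6, 115.8 and 141.6 CPM in CD48-/lo replicates 1, 3 and 4. Of the CD48hi libraries, 3 lay above all CD48-/lo libraries and replicate 3 lay among them. The log2 difference was -0.77 ± 0.31, or 1.71-fold higher in CD48hi MkPs.

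Casp9 was at 21.7, 21.3, 43.2 and 36.6 CPM in CD48hi replicates 1, 3, 4 and 5 and at 20.3, 10.9 and 11.6 CPM in CD48-/lo replicates 1, 3 and 4. The groups did not overlap, although CD48-/lo replicate 1 lay within about 1 CPM of the lowest CD48hi library. The log2 difference was -1.10 ± 0.38, or 2.15-fold higher in CD48hi MkPs. Across all 7 genes, 3 had groups that did not overlap (Casp4, Casp9 and Casp12), beside 14.6% of all tested genes. By direction, Casp4 and Casp12 stand beside 7.52% of genes with all CD48-/lo libraries above, and Casp9 beside 7.06% with all below.

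Casp2 was at 224.2, 185.1, 293.2 and 224.8 CPM in CD48hi replicates 1, 3, 4 and 5 and at 198.5, 231.9 and 158.9 CPM in CD48-/lo replicates 1, 3 and 4. The groups overlapped over most of their range. The log2 difference of -0.24 ± 0.27 was smaller than its SE.

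Casp6, the executioner of the set, showed its spread on the CD48hi side. It was at 41.9, 51.4, 22.2 and 17.9 CPM in CD48hi replicates 1, 3, 4 and 5 and at 49.0, 51.9 and 46.2 CPM in CD48-/lo replicates 1, 3 and 4. CD48hi replicates 4 and 5 were low and replicates 1 and 3 lay near or within the narrow CD48-/lo range. The log2 difference was 0.56 ± 0.38. Casp6 ran against Casp8 and Casp9 from library to library (r of the deviations from the group means -0.80 and -0.73), whereas Casp8 and Casp9 went together (0.67). Casp1 and Casp2 also ran apart (-0.75). These pairs were named after the values of all pairs were seen, and over 7 libraries such values are loose.

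**Figure D2:**
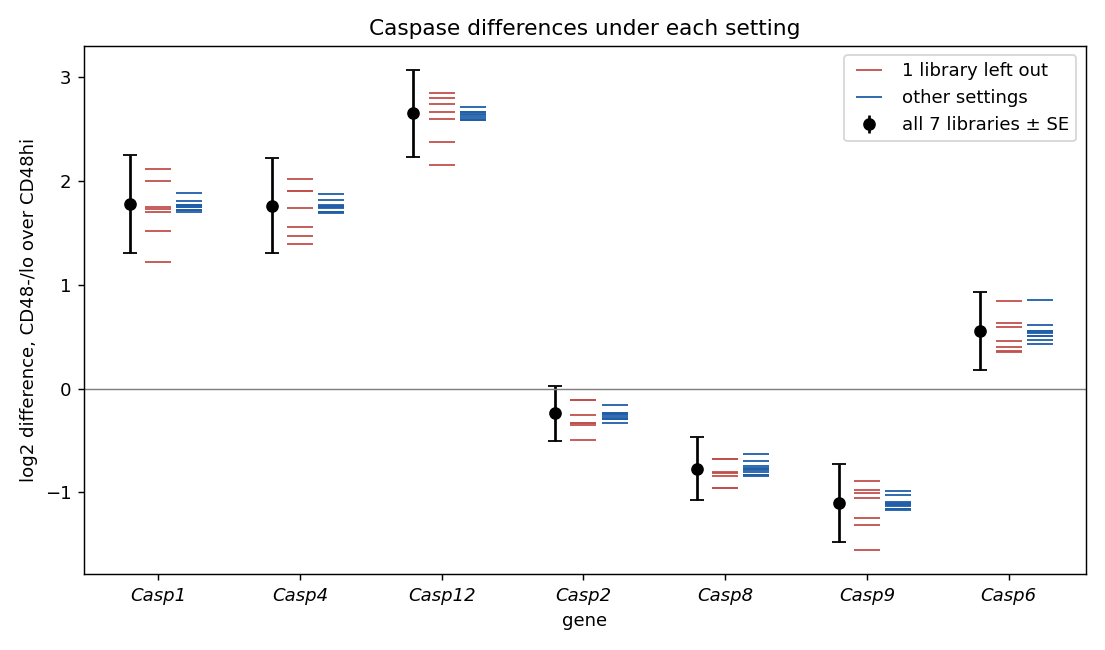
Log2 difference of CD48-/lo over CD48hi for each caspase, with all 7 libraries (black, ± SE), with 1 library left out (red) and under the other settings (blue). Casp12 stays between 2.16 and 2.85 on leaving out any library, and no gene changes sign.

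The spread between libraries of 1 subset does not use the difference between the subsets and differed among the caspases. The SD of log2 CPM about the group means was 0.27 for Casp2 and 0.39 for Casp8, the genes with the highest levels of the 7. It was 0.51 for Casp9, 0.56 for Casp6, 0.63 for Casp12, 0.75 for Casp1 and 0.77 for Casp4. Casp2 varied less than most genes of similar level (percentile 20.8 among 958 genes within 0.5 log2 units of its mean). Casp1 and Casp4 varied more than most genes of theirs (percentiles 86.7 of 1614 genes and 88.8 of 1660), and Casp12 was at percentile 76.5 of 1894.

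Levels of different genes were compared as CPM per kb of the deposited gene length. In CD48hi MkPs, Casp8 came first at 79.1 ± 22.6 CPM per kb and Casp2 second at 32.8 ± 6.37, and neither overlapped with the next gene. Casp6 (5.97 ± 2.86) and Casp9 (5.91 ± 2.11) could not be ordered within their spread. The same held for Casp12 (2.35 ± 0.86), Casp1 (2.33 ± 1.05) and Casp4 (2.15 ± 0.79), which in CD48hi MkPs formed the bottom of the order at almost the same level per kb.

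In CD48-/lo MkPs the order changed below the first 2 places. Casp8 (46.3 ± 5.48 CPM per kb) and Casp2 (27.8 ± 5.17) still led, and Casp12 came next by mean at 14.8 ± 7.51. Its library values overlapped with those of Casp2 above it and Casp6 (8.78 ± 0.50) below it. Casp6, Casp1 (7.98 ± 4.74) and Casp4 (7.30 ± 3.69) lay within each other's spread, and Casp9 was last at 2.75 ± 1.01, overlapping with Casp4 in its library values. The deposited length of Casp1 (3136 bases) is 2.09 times its exon length in GENCODE M21 (1497 bases), while the lengths of the other 6 genes are the same in both. With the shorter length the level of Casp1 would be 4.88 and 16.7 CPM per kb in CD48hi and CD48-/lo MkPs. By mean this would place Casp1 above Casp12 and Casp4 in both subsets. The ratios of Casp12 to Casp1 and the shares of the 7 genes also depend on this length.

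Seen as a whole, the make-up of the caspase transcripts shifted towards the chromosome 9 cluster. Casp1, Casp4 and Casp12 together made up 2.88%, 9.77%, 5.10% and 4.45% of the CPM per kb of the 7 genes in CD48hi replicates 1, 3, 4 and 5. In CD48-/lo replicates 1, 3 and 4 the share was 24.1%, 15.8% and 35.7%, so that the ranges did not overlap. The 3 initiators made up 80.6% to 93.3% in CD48hi and 57.8% to 74.9% in CD48-/lo libraries. Casp12 alone went from 1.01% to 2.91% in CD48hi libraries to 9.10% to 18.3% in CD48-/lo libraries. These shares rest on the same difference between the subsets as the levels above and add no separate evidence of it.

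**Figure D3:**
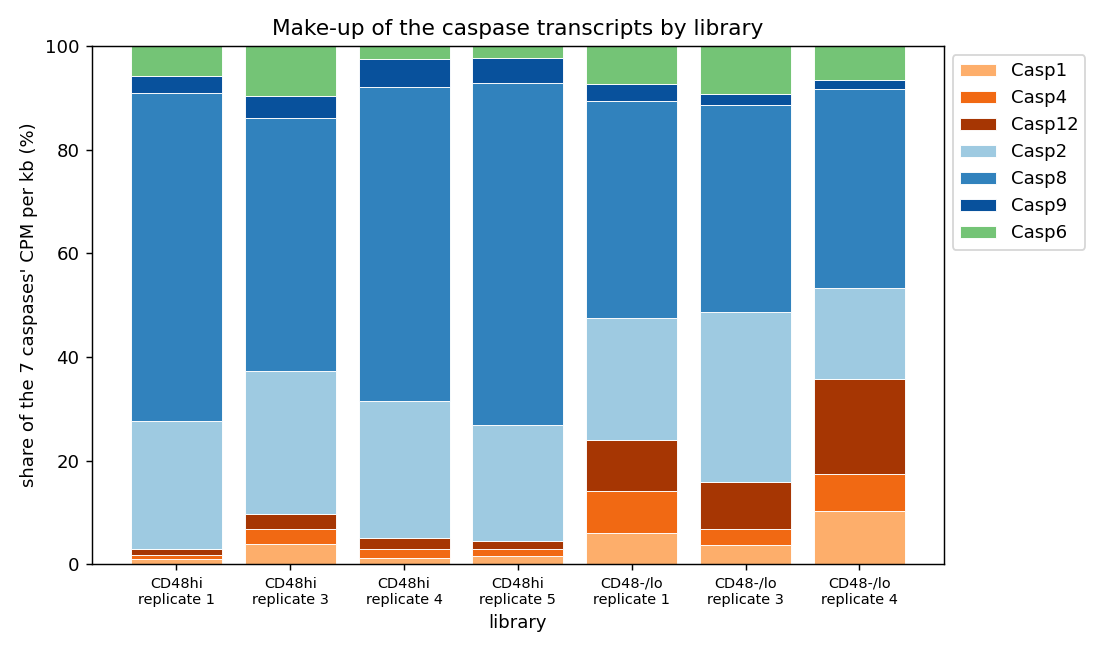
Share of each caspase in the summed CPM per kb of the 7 genes (%), 1 stacked bar per library, with the inflammatory genes in orange to brown, the initiators in blue and Casp6 in green. The orange to brown segments add up to 2.88% to 9.77% in CD48hi and 15.8% to 35.7% in CD48-/lo libraries.

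Other measures moved with the subsets. The CD48hi libraries came from 14033 to 20826 sorted cells and 51537445 to 69324909 counts, the CD48-/lo libraries from 5348 to 6497 cells and 48899037 to 51161449 counts. Mitochondrially encoded genes took 0.138% to 0.40% of counts in the CD48hi group, and 2.61%, 0.482% and 2.91% in replicates 1, 3 and 4 of CD48-/lo MkPs (exact two-sided permutation p = 0.0286, the smallest that 4 against 3 libraries allow). CD48-/lo replicate 3, the lowest CD48-/lo library in Casp1, Casp4 and Casp12, was thus also the CD48-/lo library with a low mitochondrial share. Their part in the caspase differences was not tested.

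Markers of other cells were read beside the caspases. Megakaryocyte markers were abundant in both subsets, with a summed level of 4217 to 5298 CPM in CD48hi and 3853 to 6632 CPM in CD48-/lo libraries. Of 15 erythroid markers 13 were higher and 3 called in CD48-/lo MkPs (DESeq2 called 10, and 12 had an unadjusted p under 0.05, which 17.2% of all tested genes had), with sums of 297.4 to 380.3 and 370.8 to 777.6 CPM. All 8 tested stem cell markers had higher levels in CD48-/lo MkPs with none called by edgeR (DESeq2 called 4, and 6 had an unadjusted p under 0.05), with sums of 89.6 to 182.2 and 213.3 to 233.8 CPM.

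Of 12 markers of granulocyte and monocyte progenitors 11 were lower and 3 called lower in CD48-/lo MkPs (DESeq2 called 8, and 8 had an unadjusted p under 0.05). Their summed level was 412.1 to 619.8 CPM in CD48hi and 65.5 to 147.9 CPM in CD48-/lo libraries. In CD48-/lo MkPs the most abundant were Mpo (39.6 CPM), Prtn3 (31.5 CPM) and Ms4a3 (17.5 CPM) and the least abundant Ccr2 (0.0127 CPM) and Ly86 (0.0379 CPM), and the part of such cells in the caspase levels was not tested. Basophil and mast cell markers were lower for 6 of 7 tested genes, with 1 called (DESeq2 called 3, and 5 had an unadjusted p under 0.05) and sums of 43.8 to 139.5 and 13.7 to 29.3 CPM. Neutrophil markers were low throughout, summing to 1.69 to 6.64 CPM in the CD48hi group, and to 21.2, 0.401 and 13.1 CPM in replicates 1, 3 and 4 of CD48-/lo MkPs. None of the 6 tested was called by edgeR (DESeq2 called 2, and 3 had an unadjusted p under 0.05). The 2 DESeq2 calls went opposite ways, with S100a8 higher and Mmp8 lower in CD48-/lo MkPs. S100a8 was the most abundant of these markers there (mean 8.53 CPM), and Ltf, Lcn2 and Mmp9 had no count in CD48-/lo libraries. The neutrophil sum was lowest in the same CD48-/lo library as Casp1, Casp4 and Casp12, and its part in their levels was not tested. Lymphoid markers summed to 88.6 to 234.9 and 80.8 to 237.5 CPM. Stromal and endothelial markers summed to 67.8 to 105.9 and 74.1 to 81.5 CPM. Of 5 and 4 tested genes none was called by edgeR (DESeq2 called 1 and 0, and 2 and 0 had an unadjusted p under 0.05). The most abundant lymphoid marker was Nkg7, with means of 154.2 and 146.8 CPM in CD48hi and CD48-/lo MkPs. The most abundant stromal and endothelial marker was Pecam1, at 54.2 and 56.2 CPM.

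Genes that act with the caspases were then examined in 7 lists. Of 78 tested genes none was called by edgeR. DESeq2 called 3, and an unadjusted p under 0.05 was reached by 8 genes on the higher and 6 on the lower side. These are 17.9% of the 78 genes, close to the 17.2% of all tested genes (2871 of 16653). The median log2 difference of these 78 genes was -0.18 beside 0.03 for all tested genes.

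In the apoptosome list, Apaf1, the scaffold on which Casp9 is activated, had levels of 28.7 ± 15.4 and 25.4 ± 8.09 CPM, with CD48hi MkPs given first, as in all pairs of levels that follow. Cycs, encoding cytochrome c, was at 25.8 ± 10.6 and 48.2 ± 11.4 CPM with no overlap between the groups (log2 difference 0.90 ± 0.36, adjusted p = 0.255, edgeR). Diablo and Htra2, which relieve inhibition of caspases, were at 15.4 ± 4.04 and 13.6 ± 3.25 CPM and at 103.7 ± 28.5 and 72.7 ± 13 CPM. The flavoprotein gene Aifm1 was at 132.9 ± 52.6 and 160.2 ± 3.06 CPM and the nuclease gene Endog at 1.02 ± 0.57 and 0.87 ± 0.16 CPM. The list had 2 genes with a higher and 4 with a lower level and a median log2 difference of -0.18.

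Death receptor genes were split, with 7 of 13 tested at a higher and 6 at a lower level in CD48-/lo MkPs (median 0.01). Fas, a receptor upstream of Casp8, was at 4.36 ± 2.18 and 10.3 ± 6.59 CPM and Cflar, which encodes the Casp8 inhibitor c-FLIP, at 20.2 ± 3.18 and 31.9 ± 4.24 CPM (adjusted p = 0.257 and 0.258, edgeR). Cflar was the one gene of this list whose groups did not overlap, beside 14.6% of all tested genes. Tnfrsf21, another death receptor gene, was at 188.9 ± 104.7 and 92.2 ± 16.2 CPM (adjusted p = 0.261). Of the PIDDosome list, Pidd1, which with Cradd activates Casp2, was at 32.5 ± 6.44 and 18.6 ± 1.25 CPM with no overlap (adjusted p = 0.220, edgeR, or 0.0299 by DESeq2). Next in that list by p came Trp53, encoding p53, at 130.6 ± 35.5 and 182.8 ± 71.0 CPM, and Mdm2, encoding the p53 ligase that Casp2 cuts, at 162.4 ± 58.5 and 133.0 ± 17.0 CPM (adjusted p = 0.489 and 0.672, edgeR). In the list labelled caspase inhibitors, not all of which are established as such, 7 of 8 tested genes had higher levels in CD48-/lo MkPs, with a median of 0.42. Its 3 genes with the smallest p were Naip2, Naip5 and Naip6, copies of a multigene family whose reads can be split unevenly, with adjusted p of 0.482, 0.375 and 0.387 (edgeR). Xiap, which inhibits Casp9 directly, was at 14.9 ± 6.08 and 20.8 ± 8.79 CPM, a value chosen after it was seen.

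The inflammasome list bears on Casp1 and Casp4. Its genes with the smallest p were Il1a, Nlrp6 and Il18bp. Il1a, encoding interleukin 1 alpha, had levels of 0.657 ± 0.242 and 3.84 ± 1.09 CPM with no overlap (log2 difference 2.54 ± 0.51, adjusted p = 0.0787, edgeR), and DESeq2 called it (adjusted p = 0.00023). Nlrp6, encoding a sensor protein, had the higher level in CD48hi MkPs, 6.92 ± 1.33 beside 2.66 ± 1.56 CPM with no overlap (adjusted p = 0.203, edgeR, or 0.0322 by DESeq2). Il18bp, which encodes a decoy for interleukin 18, was at 2.30 ± 1.51 and 7.06 ± 2.56 CPM, also with no overlap (adjusted p = 0.229, edgeR).

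Genes that link Casp1 to its effects were named after their values were seen. Pycard, the adaptor of Casp1, was at 45.1 ± 18.1 and 48.6 ± 5.38 CPM, and Gsdmd, whose product is cut by Casp1 and Casp4 to form pores, at 40.3 ± 5.05 and 37.2 ± 4.53 CPM. The 2 cytokine genes whose products Casp1 matures were at 7.28 ± 2.23 and 14.9 ± 8.47 CPM (Il1b) and at 1.58 ± 1.35 and 4.24 ± 0.76 CPM (Il18). The groups of Il18 did not overlap. Of the 11 tested inflammasome genes 4 had groups without overlap (Il1a, Nlrp6, Il18bp and Il18), beside 14.6% of all tested genes. Their median log2 difference over all 11 was 0.11.

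ER stress genes were read because of the link of Casp12 to the ER. Of 22 genes 4 had higher and 18 lower levels in CD48-/lo MkPs, with a median log2 difference of -0.45. The ER chaperone gene Hspa5, named after its values were seen, had nearly the same mean in both subsets, 2355 ± 909.5 and 2359 ± 137.4 CPM. The genes with the smallest p were Ddit3, encoding the stress factor CHOP, at 7.70 ± 1.65 and 14.9 ± 4.95 CPM, Sdf2l1, an ER chaperone component, at 460.0 ± 175.9 and 258.0 ± 39.4 CPM, and Xbp1, a transcription factor of the unfolded protein response, at 570.4 ± 241.9 and 346.1 ± 51.4 CPM (adjusted p = 0.228, 0.272 and 0.332, edgeR). No gene of this list had groups without overlap, beside 14.6% of all tested genes. Among 13 caspase substrates 11 had lower levels, with a median of -0.27, and none was called. The smallest p belonged to the lamin gene Lmnb1 at 355.4 ± 284.1 and 121.2 ± 48.2 CPM, the channel gene Panx1 at 91.1 ± 85.2 and 34.7 ± 10.5 CPM and the kinase gene Pak2 at 199.2 ± 67.2 and 139.2 ± 14.8 CPM (adjusted p = 0.257, 0.307 and 0.407, edgeR).

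**Figure D4:**
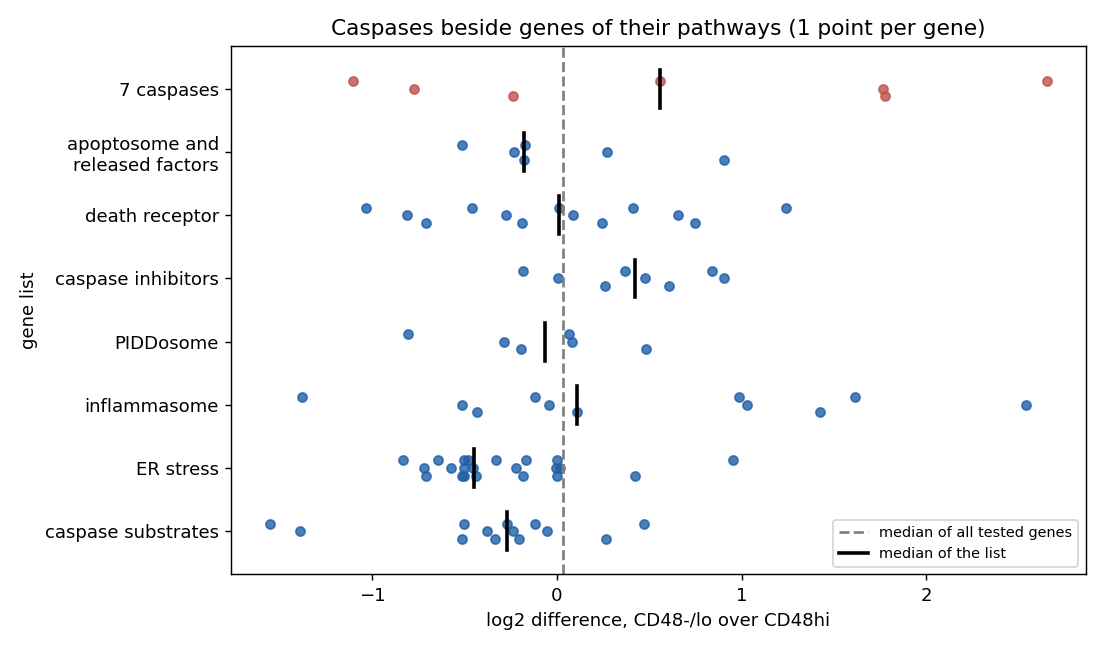
Log2 difference of CD48-/lo over CD48hi (x axis) of each tested gene in the 7 caspases (red) and in 7 lists of their pathways (blue), with a black bar at the median of each list and a dashed line at the median of all tested genes. The inflammatory caspases at 1.76 to 2.65 sit right of most genes of their pathways, of which Il1a at 2.54 lies farthest right.

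The genes whose pattern over the 7 libraries was closest to that of Casp12 were Kpnb1, a nuclear import factor (Pearson's r of log2 CPM 0.99), Zfp932, Zfp971, Aspa and Poglut2 (0.99, 0.98, 0.98 and 0.98). All 5 had higher levels in CD48-/lo MkPs, for example Kpnb1 at 65.7 ± 9.94 and 120.6 ± 21.9 CPM and Aspa at 3.74 ± 1.36 and 12.7 ± 4.92 CPM. With the group means removed the closest 5 were Zfp788, LTO1, Tshz1, Serpinb6b and Klhl28 (r 0.98, 0.98, 0.98, 0.98 and 0.97). By Spearman's rho 1 of the first 5 stayed among the top 5, and with 7 libraries such ranks are loose.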

How the data were processed

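RNA of 7 libraries of sorted MkPs was reverse transcribed from poly(A) tails with template switching, amplified and tagmented. As the submitters' processing notes and the paper's methods state, the authors used GSNAP to align reads to mm10 and featureCounts (2.0.1) to count those that aligned uniquely to each gene. The deposited counts carry no normalization and have at least 11 reads per gene over all libraries. The other deposited column used was gene length. The tables of normalised, variance-stabilised and z-score values and principal components were not used. The sources used here do not give whether counting was by strand. No stretch of 50 bases of 6 caspases occurred in a transcript of another gene in GENCODE M21. For Casp8 4.37% did (Gm20257), and Gm37760 overlaps it with at most 3.3% of its reads.

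Counts were fitted with edgeR 4.0.16 (R 4.3.3): filterByExpr (16653 genes, 99.95% of counts), TMM scaling, a quasi-likelihood F test between the subsets without covariates, prior count 0.125, Benjamini-Hochberg adjustment over all tested genes, threshold 0.05. The SE is the log2 difference divided by the square root of F. DESeq2 1.42.0, limma 3.58.1 with voom, and other scalings, filters and left-out libraries were alternatives. The gene tests were tested on simulated data first. The members and lists were chosen with earlier results of these data known. All 7 caspases are named, and of each list the genes with the smallest p (at most 3), all of the apoptosome, and a few named as seen. A further list of the design is not reported here. The p-values set the difference between the subsets against the spread between these libraries. Since the labels do not say that libraries came from separate mice, they may not extend to mice. Libraries of a subset had different counts (Spearman across genes 0.921 to 0.957 over all pairs), so none was treated as a duplicate. Promoters were read from RefSeq (GRCm38.p6), in which all 7 symbols matched.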

Additional observations from a re-analysis of the deposited data

How the results depend on the processing

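The direction of all 7 caspases was the same under every alternative run. Casp12 was no longer called, at log2 differences of 2.64 without a filter on low counts and 2.59 with a replicate block, and on leaving out 6 of the 7 libraries in turn (2.16 to 2.85, lowest without CD48-/lo replicate 4). It was still called without CD48-/lo replicate 3. The number of caspases called was 1 with all libraries, 0 without a filter and with the block, 4 with DESeq2, and 0 to 1 on leaving out a library. Genes called over all genes were 32, against 57 with RLE scaling, 10 without a filter, 64 with at least 1 CPM in 3 libraries, 1028 with DESeq2, 393 with limma, 16 with the block and 1 to 72 on leaving out a library (1 without CD48hi replicate 3, 72 without CD48-/lo replicate 3). Genes of the pathway lists called were 0, against 3 with DESeq2 (Pidd1, Il1a and Nlrp6) and 1 with limma (Il1a), and 0 on leaving out any library. Same-numbered libraries of the subsets did not deviate together (r -0.06, -0.11 and -0.03 for numbers 1, 3 and 4), so the numbers were not taken as pairs. Without division by gene length 3 of 7 caspases kept their place in the CD48hi order. The lowest count of a caspase in any library was 260 reads.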
